A study of Mus musculus with 3 samples.

Results

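The nuclear-encoded genes of oxidative phosphorylation were examined in the UMI-RNAseq data of NIH3T3, an established mouse fibroblast line. Members were taken by gene name, as every listed gene named for a subunit of complexes I to V (the Ndufa, Ndufb, Ndufc, Ndufs and Ndufv genes, Sdha to Sdhd, the Uqcr genes and Cyc1, the Cox4 to Cox8 genes and the Atp5 genes), without names marked as pseudogenes. The names matched 86 of 55573 genes, of which 36 belonged to complex I, 4 to complex II, 9 to complex III, 19 to complex IV and 18 to complex V. The name Atp5o stands on 2 of these genes. The rule uses names only and no measured value, although it was set with earlier results of these data known.

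The cells were untreated NIH3T3 cells in serum-containing medium, sequenced as 3 libraries of 1 condition, here library 1, library 2 and library 3. Since the sources do not say whether the libraries came from separate cultures, the spread over them may be technical alone. No groups could be compared, and an exact two-sided sign-flip test over 3 libraries cannot go below p = 0.25, so ratios between genes are given with their spread and without a test. Levels are FPKM, which divide a gene's fragments by its length in kilobases and by the library total in units of 1000000. Library totals inferred from the FPKM values were 13959723 to 14423209 counted fragments, after removal of PCR copies by their unique molecular identifiers (UMIs).

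The label of the cell line was checked against marker genes, because the extraction text of the labels mentions retina. All 10 fibroblast markers had an FPKM of at least 1 in every library, from Pdgfrb at a mean of 31.6 to Fn1 at 4377. None of 10 retina markers did, and the highest of them, Rcvrn, had a mean FPKM of 0.363.

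Oxidative phosphorylation takes place in the inner mitochondrial membrane. Complex I takes electrons from NADH and complex II from succinate, complex III passes them from ubiquinol to cytochrome c, and complex IV hands them to oxygen. Complexes I, III and IV pump protons as they do so, and complex V, the ATP synthase, lets the protons back and makes ATP. The mitochondrial genome encodes a small set of the subunits, and the others come from nuclear genes, most of which are described here. Several subunits of complex IV and the c subunit of complex V are each encoded by more than 1 nuclear gene, some of which are known from heart and skeletal muscle or from testis.

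Promoter sequence was examined for 5 short motifs of factors known to act on genes of the respiratory chain or on promoters in general. RefSeq windows on GRCm38.p6, from 250 bases before to 50 bases after a gene's start, matched 68 of the 86 genes. The genes with no matched window included Atp5a1, Atp5mpl, the second Atp5o gene, Cox4i1, Cox4i2, Cox6a2, Cox6c, Cox6c2, Cox8c, Cyc1, Ndufa2, Ndufb9, Ndufs1, Sdhc, Uqcrb, Uqcrc2 and Uqcrq. The motif GCGCATGC of NRF1, a factor known for binding promoters of respiratory genes, was found on either strand in 10 of the 68 genes (14.7%), compared with 4.0% of 17680 genes with a window and 6.45% of 8787 genes that also had an FPKM of at least 1 in all libraries. The motif AAGATGGC of YY1 was likewise found in 10 genes (14.7%), compared with 3.58% and 5.76%. These matches describe letters in a window and no binding was measured. The NRF1 motif and its reverse complement overlap each other, and a gene with both was counted once.

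To show the motifs in place, 1 stretch of 30 bases is given per complex for NRF1, followed by 2 for YY1. The sequences run 5′ to 3′ along the gene's own strand, and capitals mark the motif, in either orientation. Ndufa6, an accessory subunit of complex I, is at chr15:82354356-82354385 (minus strand). Sdhb, the iron-sulfur subunit of complex II, is at chr4:140961206-140961235 (plus strand). Uqcrc1, a core protein of complex III, is at chr9:108936667-108936696 (plus strand), where the motif lies 30 bases past the start. Cox6a1 is at chr5:115349102-115349131 (minus strand) and Atp5g2 at chr15:102671071-102671100 (minus strand). The YY1 stretches are from Ndufb8 at chr19:44555393-44555422 (minus strand) and Atp5f1 at chr3:105959248-105959277 (minus strand). In Ndufb8 the motif lies 38 bases past the start.
Ndufa6: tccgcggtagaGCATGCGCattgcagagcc
Sdhb: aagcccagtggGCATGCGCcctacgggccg
Uqcrc1: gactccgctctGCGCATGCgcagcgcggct
Cox6a1: acaggaacgggGCGCATGCgcgctctcgct
Atp5g2: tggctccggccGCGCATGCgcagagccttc
Ndufb8: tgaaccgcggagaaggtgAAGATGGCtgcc
Atp5f1: atgtgcgagcgGCCATCTTgctcctgcccc

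The other genes with the NRF1 motif were Atp5k, Atp5l, Ndufa11, Ndufa8 and Uqcr11, so that every complex held at least 1. The YY1 motif was found in 7 of 32 complex I genes with a window and 3 of 15 complex V genes, and in none of the 3, 5 and 13 genes of complexes II, III and IV. The GABPA motif CCGGAAGT was found in 5 genes (7.35%; 5.73% of all windows and 10.1% of those of expressed genes), namely Atp5h, Cox8a, Ndufs3, Uqcr11 and Uqcrh. The SP1 motif GGGCGGGG was found in 17.6% of the 68 genes (26.1% and 38.8%) and the TATAAA motif in 11.8% (14.7% and 8.32%). Among the factors themselves, Nrf1 had a mean FPKM of 18.2, Yy1 37.4 and Gabpa 36.1.

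Of the 86 genes, 78 were detected, which here means an FPKM of at least 1 in all 3 libraries. The same limit was passed by 22.2% of all genes listed and by 48.5% of 21980 protein-coding genes. All 36 genes of complex I, all 4 of complex II and all 9 of complex III were detected, as were 12 of 19 in complex IV and 17 of 18 in complex V. The 8 others were Cox4i2, Cox6b2, Cox6c2, Cox7a1, Cox7b2, Cox8b and Cox8c of complex IV and the second Atp5o gene. Apart from Cox6c2, which is annotated as a processed pseudogene, the complex IV genes among them are alternative isoforms of subunits.

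The 86 genes took 1.07% ± 0.0155 (SD, n = 3) of the summed FPKM and 0.602% ± 0.00199 of all fragments. Complex V held the largest part of this, 0.417% ± 0.0062 of the summed FPKM, followed by complex I with 0.251% ± 0.0047, complex IV with 0.206% ± 0.0027, complex III with 0.137% ± 0.0024 and complex II with 0.0558% ± 0.001. The share of complex V includes Atp5b, with a mean FPKM of 1169, or 533.7 if divided by the length of its 1 protein-coding isoform. In fragments, complex V held 0.272% and complex I 0.132%. Within the 12905 genes whose mean FPKM reached 1, 67 members lay in the upper 50% by mean FPKM, 52 in the upper 25% and 29 in the upper 10%. Their levels ran from 1.39 (Ndufb2) to 1169 (Atp5b) among the detected genes, and 27 had a mean FPKM of at least 100.

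**Figure D1:**
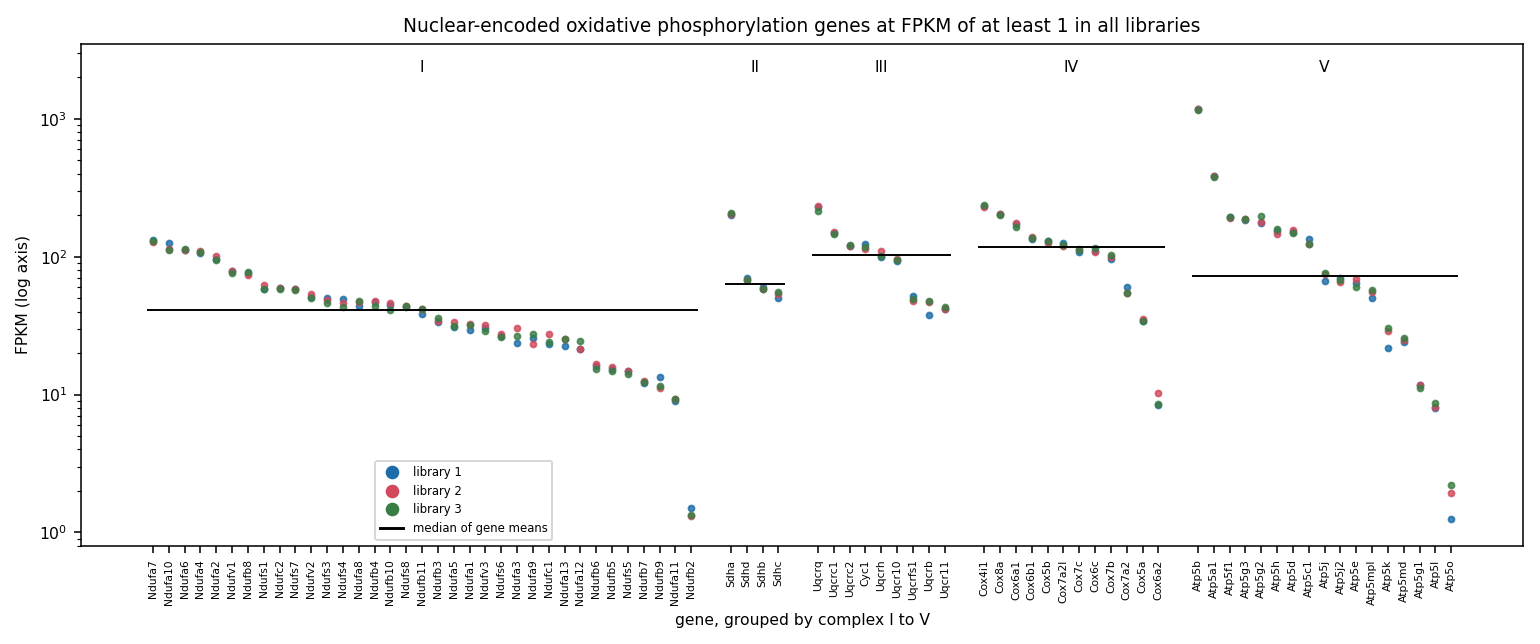
FPKM (log axis) of 77 of the 78 detected genes in each of the 3 libraries (points), grouped by complex I to V and ordered by mean, with the median of the gene means as a line. The points of a gene lie close together compared with the distances between genes, and Atp5b in complex V stands highest at a mean of 1169, whereas Ndufb2 in complex I and Atp5o in complex V stand lowest at 1.39 and 1.80.

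The median FPKM differed between the complexes. Over all members it was 103.6 ± 5.13 (SD, n = 3) in complex III, 70.9 ± 2.25 in complex V, 63.7 ± 1.07 in complex II, 56.6 ± 2.90 in complex IV and 41.7 ± 1.26 in complex I. The medians of neighbours in this order did not overlap between libraries. Complex II ranged from 63.0 to 64.9, for example, and complex IV from 54.9 to 59.9. The order depended on the isoforms that were not detected: over detected genes alone, complex IV had the highest median, 117.6 ± 0.781, and complex V had 73.7 ± 3.16. It also depended on the gene length: with each gene's longest isoform the medians were 55.4 in complex III, 54.7 in complex II, 43.1 in complex V, 35.5 in complex IV and 29.05 in complex I. With isoforms annotated as protein coding, complex V stood above complex III (110.1 and 96.7), and by the mean of log2(FPKM + 1), given on the FPKM scale, complex IV was lowest (17.9).

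In complex I, the core subunits carry the flavin and the iron-sulfur clusters. Ndufv1, which binds NADH and the flavin, had an FPKM of 78.6, 78.1 and 76.3 in libraries 1 to 3. Ndufs1 (58.3, 62.8 and 58.2) and Ndufs7 (58.5, 58.8 and 57.8), which hold iron-sulfur clusters, were lower and overlapped each other between libraries. Ndufs8, another iron-sulfur subunit, was the lowest of the core at 42.8, 44.1 and 44.2.

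The 29 accessory genes of complex I spread further, from Ndufb2 at 1.39 to Ndufa7 at 130.0. Ndufa7 had an FPKM of 132.7, 127.2 and 130.1 in the 3 libraries and was followed by Ndufa10 (mean 117.1) and Ndufa6 (112.3). The median of the core subunits was 58.3 ± 0.509, compared with 31.4 ± 0.997 for the accessory genes, and the ratio of the medians was 1.86 ± 0.0559, from 1.82 to 1.92 over libraries. Of the 29 accessory genes, 11 had a mean above Ndufs8. Ndufa4, counted in complex I by its name but known as a subunit of complex IV, had an FPKM of 105.5, 109.4 and 107.9, while its relative Ndufa4l2 rested on 8 fragments in all libraries. Set against Ndufa4 and corrected for length, these were 0.227% (95% Clopper-Pearson interval 0.0978 to 0.447%). Such intervals, and the floors given below, cover counting error only.

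In complex II, Sdha, the flavoprotein that oxidizes succinate, stood apart with an FPKM of 202.4, 205.5 and 206.8. The iron-sulfur subunit Sdhb (60.3, 58.4 and 58.2) and the membrane anchors Sdhc (49.8, 53.4 and 55.2) and Sdhd (69.6, 67.6 and 68.2) were lower in every library. This gap depended on the length assigned to Sdha. The FPKM of a gene was computed with the mean length of its annotated isoforms, which is 771 nt for Sdha, but its longest isoform has 2900 nt. Divided by the longest isoform instead, Sdha had a mean FPKM of 54.5, and with isoforms annotated as protein coding 87.2. In fragments, which carry no length, Sdha had 2212 to 2281 per library, Sdhd 1161 to 1235, Sdhc 1026 to 1127 and Sdhb 934 to 997.

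In complex III, the small subunit Uqcrq, which lies near the quinone-binding cytochrome b, was highest, with an FPKM of 229.0, 233.1 and 215.8. The core proteins Uqcrc1 (149.5, 150.4 and 145.6) and Uqcrc2 (120.2, 119.2 and 121.6) and cytochrome c1, Cyc1 (124.3, 113.2 and 117.1), came next. Uqcrc2 and Cyc1 overlapped between libraries. The Rieske iron-sulfur protein Uqcrfs1, which passes electrons to cytochrome c1, was lower at 51.8, 47.6 and 49.6, close to Uqcrb (mean 44.1) and to the lowest gene of the complex, Uqcr11 (42.2). The complex spanned 5.35-fold from highest to lowest.

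In complex IV, the detected genes spanned 25.7-fold, down to the muscle form Cox6a2 at a mean FPKM of 9.07. Cox4i1, the largest nuclear-encoded subunit, was highest, with an FPKM of 232.0, 230.9 and 237.5. Cox8a (mean 203.5), Cox6a1 (170.8), Cox6b1 (136.6), Cox5b (128.9), Cox7c (111.8), Cox6c (111.5) and Cox7b (99.2) followed. Cox5a was lower at 34.0, 35.6 and 34.3, although 1 copy of it and 1 of Cox5b are known to sit in the same complex. The ratio of Cox5b to Cox5a was 3.73 ± 0.155 by FPKM, 2.0 ± 0.0833 in fragments and 2.11 ± 0.0879 with isoforms annotated as protein coding. Of the coding bases of Cox5a, 25.3% lie inside exons of another gene.

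The isoforms of complex IV subunits known from most tissues were far above those known from muscle, lung or testis. Cox4i2, known from lung, had 3, 1 and 6 fragments in libraries 1 to 3 (FPKM 0.285, 0.0981 and 0.574), compared with 2018, 1944 and 2049 for Cox4i1. Corrected for length, Cox4i2 stood at 0.137% of Cox4i1 (95% Clopper-Pearson interval 0.0659 to 0.253%) over the pooled libraries. The testis form Cox6b2 had 0, 2 and 0 fragments, or 0.0724% of Cox6b1 (0.00876 to 0.262%). All libraries had 0 fragments of Cox7b2, Cox8b and Cox8c.

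For these 3 genes, folds were taken against a floor of 3 fragments per library, the limit set here for a count of 0. Against this floor, Cox7b, with an FPKM of 95.8, 99.5 and 102.4, was at least 249.6-fold higher than Cox7b2, known from testis. Cox8a, with 204.6, 205.3 and 200.5, was at least 343.8-fold higher than the muscle form Cox8b and at least 437.4-fold higher than Cox8c, also known from testis. These folds depend on the gene length. With the longest isoform, as with isoforms annotated as protein coding, their means over libraries were 145.0 for Cox7b2, 332.9 for Cox8b and 423.5 for Cox8c. Markers of testis germ cells were not detected (0 of 10), and 6 of them were listed at 0.

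Of the forms known from heart and skeletal muscle, Cox6a2 and Cox7a1 gave fragments. Cox6a2 was detected, with an FPKM of 8.36, 10.3 and 8.53 on 82, 98 and 83 fragments, compared with 173.0, 176.1 and 163.2 for Cox6a1. This amounted to 5.31% ± 0.520 (SD, n = 3) of Cox6a1. None of the coding bases of Cox6a2 overlap another gene, and none of its 75-nt words occur in another gene's transcripts, but 10.3% of its exon bases lie opposite exons of Itgad. Cox7a1 had an FPKM of 1.26, 0.653 and 1.59 on 8, 4 and 10 fragments, or 2.07% ± 0.858 of Cox7a2. Of 10 markers of striated muscle, 1 was detected, the cardiac troponin T gene Tnnt2 with a mean FPKM of 12.6, and Myh1, Myh4 and Actn2 were listed at 0. The summed FPKM of the 10 muscle markers was 13.1 to 13.4 per library. The part of muscle-like transcription in the level of Cox6a2 was not tested.

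Cox7a2l, known as a factor that joins complexes III and IV into supercomplexes, was above Cox7a2 in each library. Its FPKM was 125.5, 118.6 and 120.7, compared with 59.9, 54.9 and 54.9 for Cox7a2. The ratio was 2.15 ± 0.0537 (SD, n = 3) by FPKM and 4.04 ± 0.101 in fragments.

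**Figure D2:**
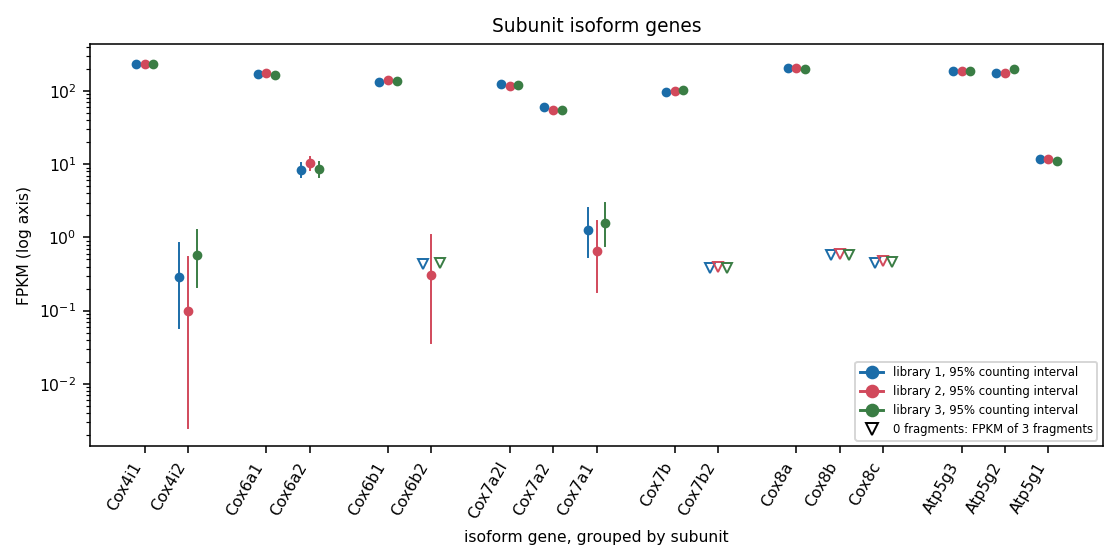
FPKM (log axis) of isoform genes of the complex IV subunits and of subunit c of complex V in each library, with exact 95% counting intervals as lines. Open triangles mark libraries with 0 fragments, drawn at the FPKM of 3 fragments. Cox4i2, Cox6b2, Cox7a1, Cox7b2, Cox8b and Cox8c lie near or below an FPKM of 1, whereas Cox6a2 lies between 8.36 and 10.3 and Atp5g1 between 11.1 and 11.8.

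In complex V, the catalytic F1 head was led by Atp5b, the beta subunit, with an FPKM of 1172, 1170.4 and 1163. By mean FPKM it was number 44 of those 12905 genes. Atp5a1, the alpha subunit, had 384.9, 383.6 and 381.0. Alpha and beta are known to stand in equal number in the enzyme, and the ratio of Atp5b to Atp5a1 was 3.05 ± 0.00351 (SD, n = 3) by FPKM. It was 1.78 ± 0.00205 in fragments and 2.48 ± 0.00286 with the longest isoform, so that Atp5b was higher by each measure.

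The single-copy subunits of the F1 stalk were lower than both. Atp5d (delta) had a mean FPKM of 152.1, Atp5c1 (gamma) 126.8 and Atp5e (epsilon) 64.8. The 5 genes of F1 had a median of 152.1 ± 4.04, compared with 54.3 ± 3.63 for the 13 other genes of complex V. The ratio of these medians was 2.81 ± 0.215, from 2.59 to 3.02 over libraries. Of the 13 other genes, 6 were above Atp5e and 0 above Atp5b.

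In the membrane part and the peripheral stalk, Atp5f1 (subunit b) had a mean FPKM of 192.2 and Atp5h (subunit d) 152.9. Atp5j (coupling factor 6) stood at 72.5 and Atp5j2 (subunit f) at 67.8, and the small membrane subunits Atp5mpl, Atp5k (subunit e), Atp5md and Atp5l (subunit g) at 54.3, 27.1, 24.8 and 8.29. The low value of Atp5l came with a mean isoform length of 1939 nt. With the 1 isoform annotated as protein coding, of 544 nt, its FPKM was 29.5, and with the longest isoform, of 6310 nt, 2.55.

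Subunit c, which forms the rotating ring, is encoded by 3 genes whose mature proteins are known to be identical. Atp5g3 had an FPKM of 186.1, 188.5 and 188.5, Atp5g2 175.5, 177.9 and 197.9, and Atp5g1 11.8, 11.8 and 11.1. Atp5g3 was above Atp5g2 in libraries 1 and 2 and below it in library 3, with a ratio of 1.02 ± 0.0620, so their order was within the spread. Together the 3 genes summed to 383.0 ± 12.8, of which Atp5g3 held 49.0% ± 1.39, Atp5g2 47.9% ± 1.60 and Atp5g1 3.02% ± 0.204. Atp5g1 has a mean isoform length of 2666 nt, and in fragments its share was 10.5% ± 0.630. Of the 75-nt words of Atp5g2, 35.8% also occur in transcripts of other genes.

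The 2 lowest detected genes of all, Ndufb2 and Atp5o, encode an accessory subunit of complex I and the subunit of the ATP synthase's peripheral stalk known for conferring oligomycin sensitivity. Ndufb2 (ENSMUSG00000002416, chr6:39592574-39603382, plus strand) had 27, 23 and 24 fragments, an FPKM of 1.5, 1.32 and 1.34. Atp5o (ENSMUSG00000022956, chr16:91925214-91931687, minus strand) had 12, 18 and 21 fragments, an FPKM of 1.25, 1.94 and 2.21. In both genes, other annotated genes cover much of the coding sequence: 72.7% of the coding bases of Ndufb2 lie in exons of Gm16272, Braf or Gm42420, and 47.1% of those of Atp5o in exons of Gm15976, D430001F17Rik or the second Atp5o gene. Gm16272, Braf, Gm15976 and D430001F17Rik lie on the opposite strand. The second Atp5o gene (ENSMUSG00000116933, chr16:91684398-91926982, minus strand) was covered over 100% of its coding bases, by Donson and the first Atp5o gene, and was listed at 0 in all libraries.

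Among the 78 detected genes, Ndufb2 and Atp5o were the only 2 with more than 40% of their coding bases inside other genes' exons, and 64 had none. The same limit was passed by 272 of 10665 detected protein-coding genes (2.55%). The next in overlap, Ndufb9 with 37.4%, had a mean FPKM of 12.1. Whether fragments that lie in several genes were counted, and whether strand was used, is not given in the sources used here. The part of the overlap in these levels was not tested.

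**Figure D3:**
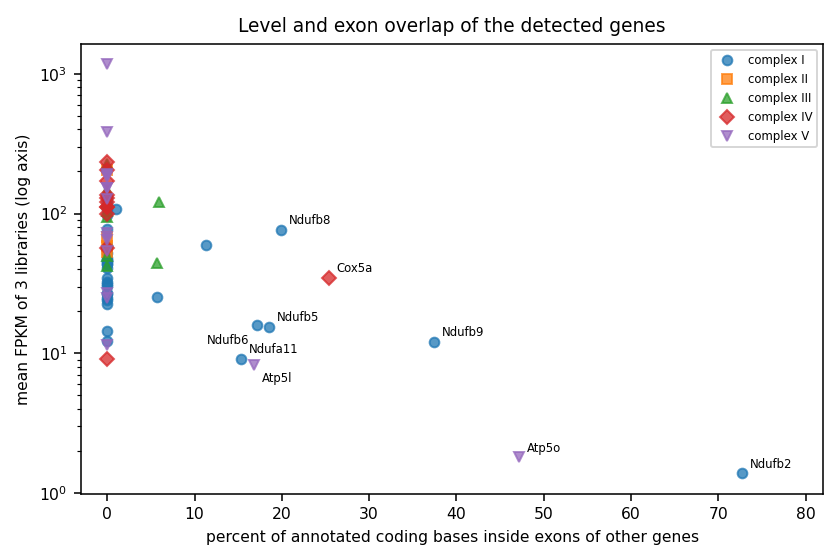
Mean FPKM of 3 libraries (log axis) of the 78 detected genes against the percent of their annotated coding bases that lie inside exons of other genes, with symbols by complex. Most genes stand at 0%, and Atp5o (47.1%, FPKM 1.80) and Ndufb2 (72.7%, FPKM 1.39) stand apart at the lower right.

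The detected genes are short. Their median mean-isoform length was 767 nt, compared with 1767 nt for all detected protein-coding genes, and 75 of the 78 were shorter than that value. Because FPKM divides by length, the level of several genes depended on which isoform length was taken. The 5 genes that changed most with the longest isoform were Sdha, Ndufb2 (1.39 to 0.396), Atp5l, Cox6c (111.5 to 35.5) and Ndufb8 (75.9 to 24.2). With isoforms annotated as protein coding, Cox6c instead rose to 174.9, Ndufb8 had 57.2 and Ndufb2 0.718. The longest isoform was 1.5 times the mean length in the median of the detected genes, compared with 1.85 times over all detected protein-coding genes.

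**Figure D4:**
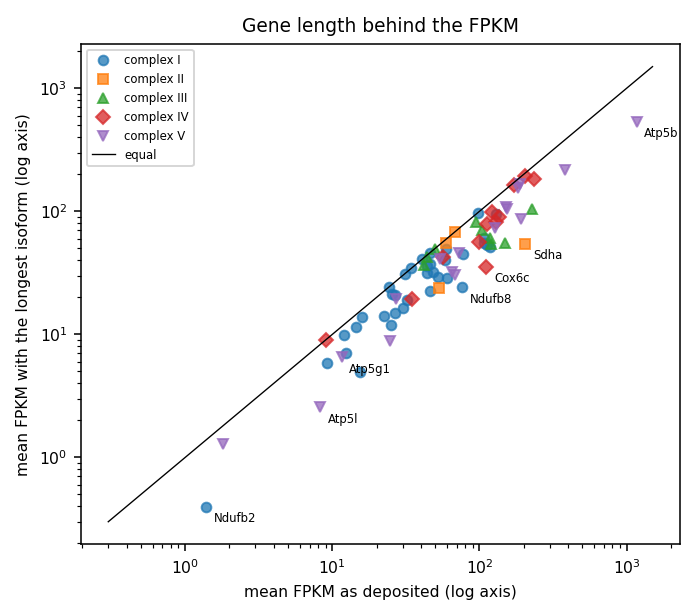
Mean FPKM with each gene's longest annotated isoform against the mean FPKM as deposited (both log axes), for the 78 detected genes by complex, with a line of equality. Sdha (204.9 to 54.5), Cox6c, Ndufb8, Atp5l and Ndufb2 lie farthest below the line, and Atp5b stays the highest gene.

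The libraries differed little in these genes. The median CV over libraries was 3.61%, and the median CV expected from counting was 3.92%. The median of a CV over 3 libraries tends to fall below the expected value, so these 2 values do not show a spread under counting error. In 58 of 78 genes the highest library was at most 1.1 times the lowest. A chi-square test of the fragments over the 3 libraries, which compares libraries and not conditions, called 1 of 78 genes at an adjusted p under 0.05 (Benjamini-Hochberg over all genes tested), compared with 2.04% of 13760 genes. The gene called was Atp5g2, with 1620, 1589 and 1812 fragments, highest in library 3 (adjusted p = 0.0286, chi-square test). Its call was lost without library 1 and without library 3. At an unadjusted p under 0.05, the count was 10 genes (12.8%), compared with 9.50% of all genes. The median chi-square statistic of the 78 genes was 1.44, compared with 1.39 under counting alone and 1.59 over all genes tested.

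Among detected genes, 6 had a CV over 10%. Atp5o had the largest, 27.4% on 51 fragments in all, near the 24.3% given by counting. Atp5k followed with 16.9%, and its FPKM of 21.9 in library 1 lay below the 29.05 and 30.4 of libraries 2 and 3. Uqcrb (37.9, 46.9 and 47.4) showed the same order, while Ndufa3 (23.5, 30.2 and 26.7) was highest in library 2. None of these passed the chi-square test. Including genes that were not detected, the 5 largest CVs were those of Cox6b2, Cox6c2, Cox4i2, Cox7a1 and Atp5o, at 173%, 99.2%, 75.2%, 40.8% and 27.4%, all on few fragments. Library 1 held the highest value of 19 genes, library 2 of 31 and library 3 of 28.

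Related gene groups place these levels. The median FPKM of all 86 genes was 52.4 ± 1.51 (SD, n = 3). The 78 genes of mitochondrial ribosomal proteins, which translate the mitochondrially encoded subunits, had a median of 22.6 ± 0.527, so that the oxidative phosphorylation genes stood 1.21 ± 0.02 higher on the log2 scale of median FPKM. The 17 glycolysis genes had a median of 169.0 ± 2.89 (a log2 difference of -1.69 ± 0.07) and the 99 genes of cytosolic ribosomal proteins 357.4 ± 20.3 (-2.77 ± 0.04). Each difference had the same sign in all 3 libraries. Its SD covers the spread over libraries only, not that between genes or from the choice of gene length. With the longest isoform, for example, the log2 difference from the glycolysis genes was -1.06. Among the 17 glycolysis genes, Gapdh had a mean FPKM of 29.3, compared with 847.0 for Eno1 and 1319 for Pkm. For these related groups, exon overlap and sequence shared with other genes are not reported here. The part of either in the group medians and in the log2 differences was not tested. The detected members themselves had quartiles of 30.6 and 117.9 by mean FPKM. All protein-coding genes whose mean FPKM reached 1 had a median of 21.9 ± 0.115. In these groups, 77 of 78 mitochondrial and 92 of 99 cytosolic ribosomal protein genes and 16 of 17 glycolysis genes were detected.

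Genes that assemble the complexes were examined beside the subunits. All 14 assembly factors of complex I were detected, with a median FPKM of 10.9 ± 1.03, from Ndufaf3 at 2.72 to Acad9 at 25.3. For complex IV, 14 of 18 factors were detected with a median of 9.89 ± 0.177 over the list, the highest being Coa5 at 50.4, while Sco2 and Pet117 were listed at 0. Those of complex II numbered 3 of 4 detected (Sdhaf2 at 19.1, Sdhaf1 at 0.178), those of complex III 5 of 6 (Uqcc2 at 123.8, Lyrm7 at 0.846) and those of complex V 3 of 3 (Tmem70 at 37.9, Atpaf1 at 14.4). Exon overlap with other genes is not reported here for these factors. Its part in the values at 0 or under 1 was not tested. The medians of the lists for complexes I to V lay below those of their subunits. They were 10.9, 4.02, 13.8, 9.89 and 35.2, compared with 41.7, 63.7, 103.6, 56.6 and 70.9. As a single gene, Uqcc2 was above the median of complex III.

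Transcriptional regulators of mitochondrial genes were detected in 9 of 10 cases. The exception was Ppargc1a, a coactivator known for raising mitochondrial gene expression in muscle and brown fat, with an FPKM of 0.684, 0.754 and 0.368. Its relatives Ppargc1b and Pprc1 had means of 3.57 and 59.8, and Tfam, which packages and transcribes mitochondrial DNA, had 39.3. The highest of the list was Hif1a, the oxygen-regulated factor, at 122.8. Cytochrome c itself, which carries electrons from complex III to complex IV, was measured as Cycs with an FPKM of 47.9, 46.9 and 49.5. Its testis form Cyct had 1 fragment in all, or 0.0744% of Cycs after correction for length (95% Clopper-Pearson interval 0.00188 to 0.415%). The acyl carrier subunit Ndufab1 and the ATPase inhibitor Atpif1, which the choice by name leaves out, had means of 14.5 and 11.2.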

How the data were processed

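According to the methods, RNA of NIH3T3 cells was sequenced as UMI-RNAseq. The submitters' processing notes list UMI-tools 1.0.0, HISAT2 2.0.4 and HTSeq 0.6.1, while the build and annotation used for counting are not given in the sources used here. The authors deposited FPKM values, 1 column per library, and 0 columns were left unused. No count model was fitted. Library totals were inferred from the FPKM and lengths of genes with 1 annotated isoform. Fragments behind each FPKM were recovered from these totals and GENCODE M21 isoform lengths (GRCm38), after a test on simulated data. They came out whole within 0.001 for 25966 of 26178 genes with fragments (99.2%). Of the gene IDs, 55480 of 55573 were found in GENCODE M21. Levels were summarized within each library and then as mean ± SD over libraries. Genes with at least 10 fragments on average were tested for differences between libraries by chi-square, with Benjamini-Hochberg adjustment. Python 3.11.15, numpy 2.4.6, pandas 2.3.3, scipy 1.17.1 and matplotlib 3.10.9 were used. Counting intervals are exact at the 95% level. Promoter windows came from RefSeq (GRCm38.p6) and were matched through Entrez IDs. Genes were named as isoform sets, core subunits, the highest and lowest of each complex or list, the 5 largest CVs, the 5 largest changes with the longest isoform, and genes called by the chi-square test. Not every gene under this rule is reported here. Other genes were named after their values were seen, for their role. The members and gene lists were chosen with earlier results of these data known. The alternatives were leaving out each library, other FPKM limits, TPM rescaling, median-of-ratios scaling, other isoform lengths, detected genes alone, the mean of log2(FPKM + 1), pseudocounts of 1 and 0.1, fragments without length, and filters on shared words and fragments. Imaging data were not analysed here.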

Additional observations from a re-analysis of the deposited data

Results flagged for a closer look

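Genes with names marked as pseudogenes were left out of all comparisons, and 2 of the 7 that the names would otherwise have matched had, in at least 1 library, more than the 3 fragments that a count of 0 allows. Atp5l2-ps, named for a copy of the subunit g gene of the ATP synthase, had 6, 8 and 5 fragments in libraries 1 to 3, 19 in all, with a mean FPKM of 1.43. Of its 75-nt words, 37.0% also occur in transcripts of other genes. Atp5k-ps2, named for a copy of the subunit e gene, had 5, 2 and 2 fragments, 9 in all, which passes that limit in library 1 only, and none of its words were shared. The 5 other pseudogenes held 0 to 2 fragments each. The part of shared sequence in these counts was not tested.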

How the results depend on the processing

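Of 157 recomputed values, 100 moved by less than the spread between libraries, 57 moved by more and 0 reversed. For counts of genes, a set fold limit stood in place of the spread. Only log2 ratios could be labelled as reversed. The median FPKM of complexes I to V was 60.5, 92.3, 150.2, 81.9 and 102.7 after rescaling to 1000000 per library (TPM), 29.05, 54.7, 55.4, 35.5 and 43.1 with the longest isoform, and 36.4, 81.4, 91.2, 17.9 and 55.9 as the mean of log2(FPKM + 1). Detected genes alone gave 117.6 for complex IV and 73.7 for complex V. Chosen after seeing the data, isoforms annotated as protein coding gave 37.2, 96.7 and 110.1 for complexes I, III and V, and leaving out genes overlapped over more than 40% of their coding bases gave 43.0 for complex I and 100.3 for complex V. Not divided by length, the members held 0.602% of fragments. With the longest isoform, detected genes alone and the mean of log2(FPKM + 1), the log2 ratio of the members' level to that of mitochondrial ribosomal protein genes was 1.54, 1.36 and 0.91, to that of cytosolic ribosomal protein genes -2.44, -2.89 and -2.02, and to that of glycolysis genes -1.06, -1.98 and -1.84. The number of members called in the chi-square test ranged from 0 to 1 when 1 library was left out, and was 0 among genes with under 5% of shared words, a filter that removes Atp5g2. Ratios of isoform pairs, and of Cox5b to Cox5a and Atp5b to Atp5a1, kept their direction under all 72 alternatives tried. Of these, 22 moved the value by more than the spread. Pairs with Cox6b2, Cox7b2, Cox8b, Cox8c, Ndufa4l2 or Cyct were not among the 72. Genes at 0 fragments are limited by depth to a floor of 3 fragments.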

Other observations

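The 13 mitochondrially encoded subunits, which join the nuclear-encoded ones in complexes I, III, IV and V, were all detected, with a median FPKM of 944.3 ± 206.7 (SD, n = 3), from mt-Atp8 at a mean of 36.1 to mt-Co1 at 5531. Unlike the nuclear-encoded genes, several of them differed widely between libraries, and 7 of 13 had a ratio of library 3 to library 2 over 1.5. The chi-square test that compares libraries called 12 of 13, compared with 2.04% of all 13760 genes tested. With up to 126822 fragments of a gene in a library (mt-Co1), this test can also call small differences. The FPKM of mt-Co2, a catalytic subunit of complex IV, was 2185, 983.8 and 3844 in libraries 1 to 3, and that of mt-Atp6 was 1157, 459.2 and 1860.0. The ratio of library 3 to library 2 was 3.91 for mt-Co2, 3.98 for mt-Co3, 4.05 for mt-Atp6, 4.12 for mt-Atp8, 3.96 for mt-Nd3 and 4.32 for mt-Nd4l, and 1.53 for mt-Nd4. For the others it was 0.974 (mt-Nd2) to 1.07 (mt-Co1). Over the 78 detected nuclear-encoded genes it ran from 0.826 to 1.19, with a median of 0.994.

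The mitochondrial genes with ratios near 4 were those that share most of their sequence with other annotated genes, apart from mt-Atp8. The share of 75-nt words that also occur in transcripts of other genes was 99.5% for mt-Co2 and mt-Atp6, 99.9% for mt-Co3, 97.8% for mt-Nd3 and 98.7% for mt-Nd4l. It was 61.5% for mt-Nd4, 39.8% for mt-Co1 and at most 5.71% (mt-Nd2) for the other genes, with 0% for mt-Atp8. The part of shared sequence in these differences was not tested.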
